A study of Mus musculus with 6 samples.

Results

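The genes described here are 10 markers of hepatic stellate cells and pericytes, namely Pdgfra, Pdgfrb, Des, Ngfr, Lrat, Reln, Hgf, Rgs5, Lhx2 and Hand2. They were taken by gene symbol from the RNA-seq count table of damaged hepatocytes (dHeps), which holds 52323 genes. All 10 were present and all 10 passed the filter on low counts, which kept 19135 genes. Their levels were compared in 6 libraries of cultured dHeps, with 2 libraries in each of 3 groups.

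The cells came from the livers of CCl4-injured mice. The paper traced hepatocytes of such mice by AAV-TBG-Cre: Rosa-LSL-tdTomato, where the liver-specific TBG promoter drives the Cre that switches on tdTomato. Whether the mice of these libraries carried this label is not stated. All 3 groups shared this injury and a serum-free hepatocyte maintenance medium, and all were collected on day 16. The DMSO group received the solvent. The 3C group received a protein kinase D inhibitor (CID755673, 50 µM), a ROCK inhibitor (GSK429286A, 2 µM) and bempedoic acid (ETC-1002, 5 µM). The 5C group received these compounds at the same doses together with the plant glycoside salidroside (5 µM) and forskolin (2 µM), which activates adenylate cyclase. The mice of the paper's injury model were young adults when the repeated CCl4 injections began, and the age is not stated for these libraries. The methods describe replicates as biological, without stating for these libraries whether they came from separate animals or separate cultures, and p-values measure only the spread between these libraries.

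Stellate cells lie between hepatocytes and the sinusoidal endothelium and store vitamin A as retinyl esters while they are quiescent. On injury they lose this store, contract, divide in response to PDGF and deposit collagen as myofibroblasts. Pericytes are the related mural cells of capillaries and share several markers with them. Among the 10 genes, Lrat, Reln, Hgf, Rgs5, Ngfr, Lhx2 and Hand2 are here grouped as quiescence-linked, and Pdgfra, Pdgfrb and Des as activation-linked. This grouping is a simplification, since quiescent stellate cells also hold Des and PDGF receptors and Ngfr is also reported in activated cells. By single-cell RNA-seq the paper also reports higher Des, Pdgfra and Pdgfrb in hepatocytes of CCl4-injured mice. It reports that most cells of its hepatocyte-enriching isolation carried the hepatocyte label. Which cells supplied the 10 markers here was not tested. In RNA from whole cultures, fewer cells of a type and less RNA per cell cannot be told apart.

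Total estimated counts were 65916573 to 69245895 per library. A value under 12 counts, which is 3 fragments if a fragment stands for 4 counts, or 0.173 to 0.182 CPM, the counts scaled to a library total of 1e6, was treated as being at the floor. Across genes, which are not independent replicates, the correlation of log2 CPM was 0.9753 to 0.977 between libraries of a group and 0.935 to 0.969 between groups. The 10 hepatocyte markers examined summed to 2385 to 2721 CPM in DMSO, 10843 to 11314 CPM in 3C and 9915 to 14565 CPM in 5C. Most of this sum in 3C and 5C was Alb, with means of 1269 CPM in DMSO, 7585 CPM in 3C and 8583 CPM in 5C. Arg1 went the other way, with means of 460 CPM in DMSO, 373 CPM in 3C and 253 CPM in 5C. Markers of other cell types were also found in the RNA, and the cells that supplied them were not identified. Summed macrophage markers ran from 10765 to 11488 CPM in DMSO, from 3554 to 3555 CPM in 3C and from 2294 to 2336 CPM in 5C. Summed mesothelial markers were 1683 to 1802 CPM in DMSO, 2433 to 2502 CPM in 3C and 3067 to 3291 CPM in 5C.

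On the length-corrected FPKM scale, the PDGF receptors and desmin had the highest means of the 10 markers. Pdgfrb averaged 23.6 FPKM over the 6 libraries with a range of 13.1 to 37.6 FPKM, Des averaged 19.2 FPKM with a range of 12.3 to 29.2 FPKM, and Pdgfra averaged 14.2 FPKM with a range of 6.58 to 21.6 FPKM. These ranges overlapped, so that the order among the 3 genes was not fixed. Hand2 followed with 7.20 FPKM and a range of 6.86 to 7.65 FPKM, and in the second DMSO library it lay above Pdgfra (7.52 beside 6.58 FPKM). Lrat at 3.21, Rgs5 at 2.54, Hgf at 2.44, Lhx2 at 2.01 and Reln at 1.68 FPKM had overlapping ranges between 0.807 and 5.81 FPKM. Ngfr was the lowest at 0.662 FPKM, from 0.0418 to 1.48 FPKM. Other stellate markers were uneven in level. Gfap lay at 0.106 to 0.246 CPM, at or near the floor in every library. Hhip had 0.116 CPM in 1 library of 5C and no count in the other 5 libraries.

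In 5C against DMSO, 4 of the 10 markers changed and all 4 rose, where a change is an adjusted p under 0.05 in edgeR's quasi-likelihood test and an absolute log2 fold change above 1. They were both PDGF receptors, the retinol-esterifying enzyme Lrat and the neurotrophin receptor Ngfr. By the same rule 11.7% of all tested genes changed in this comparison, while 7.3% rose and 4.42% fell. In 3C against DMSO, 4 markers changed, of which Lrat, Rgs5 and Ngfr rose and Des fell, beside 9.45% of all tested genes, with 5.83% that rose and 3.62% that fell. None of the 10 passed both limits in 5C against 3C, beside 3.01% of all tested genes (2.16% higher and 0.852% lower). There 3 markers had an adjusted p under 0.05 by edgeR, beside 12.7% of all tested genes on the adjusted p alone. By DESeq2 3 markers had an adjusted p under 0.05, and 5 had an unadjusted p under 0.05 by edgeR. The shares of all tested genes for these last 2 counts were not computed, so the counts cannot be judged against them. The libraries of the compared groups did not overlap for 7 of the 10 markers in 5C against DMSO (63.1% of all tested genes), for 8 in 3C against DMSO (61.3%) and for 6 in 5C against 3C (58%). On the adjusted p alone 5 markers passed in 5C against DMSO (28.7% of all tested genes) and 6 in 3C against DMSO (24.5%). The comparisons of 3C and of 5C with DMSO use the same DMSO libraries and are not independent of each other.

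**Figure D1:**
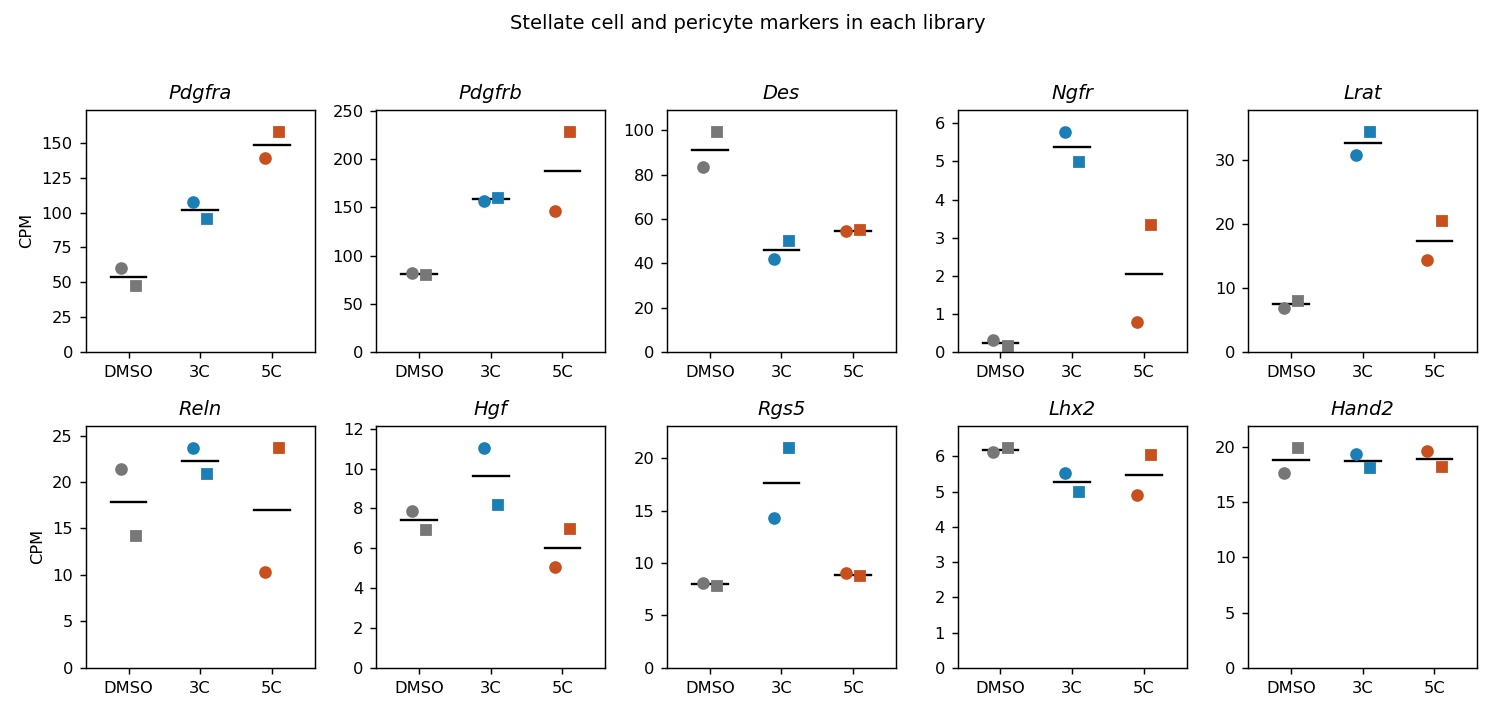
CPM of the 10 markers in each library (vertical axes, each from 0), by group; circles are replicate 1, squares are replicate 2 and the horizontal bars are group means. Both libraries of 3C and of 5C lie above both DMSO libraries for Pdgfra, Pdgfrb, Lrat and Ngfr and below them for Des, while the groups of Reln and Hand2 overlap.

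Pdgfra (chromosome 5, 75311994 to 75358876, plus strand, GRCm39) encodes the alpha receptor for PDGF, which mesenchymal cells of the liver carry widely. Its level was 60.4 and 47.3 CPM in the DMSO libraries, 107 and 95.7 CPM in 3C and 139 and 158 CPM in 5C. The 3 groups did not overlap, with DMSO lowest and 5C highest. Pdgfra rose in 5C against DMSO by a log2 fold change of 1.49 (SE 0.12, 95% interval 1.20 to 1.77, adjusted p = 4.01e-05), which is 2.80-fold. In 3C against DMSO the difference of 0.88 (SE 0.12, adjusted p = 0.000918) passed the p limit but not the fold limit, as did the difference of 0.60 (SE 0.12, adjusted p = 0.0133) in 5C against 3C. Without the first DMSO library the difference in 3C against DMSO was 1.06, past both limits. The p limit in 5C against 3C was not kept by limma on FPKM. There the adjusted p was 0.0678 with log2(FPKM + 1), 0.0765 with log2(FPKM + 0.1) and 0.200 with unfiltered log2(FPKM + 1). Nor was it kept without the second 3C library (difference 0.52) or the second 5C library (0.48).

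Pdgfrb (chromosome 18, 61178212 to 61218133, plus strand) encodes the beta receptor, which is used to mark stellate cells and pericytes in every state. It had 81.4 and 79.8 CPM in DMSO, 157 and 160 CPM in 3C and 146 and 229 CPM in 5C. All treated libraries were above both DMSO libraries, and the 5C libraries lay on either side of the 3C libraries. The log2 fold change was 1.24 (SE 0.21, 95% interval 0.71 to 1.77, adjusted p = 0.00833) in 5C against DMSO, a rise of 2.36-fold. It was 0.94 (SE 0.21, 95% interval 0.41 to 1.47, adjusted p = 0.0255) in 3C against DMSO, short of the fold limit. This p did not hold in several other settings. It was not kept without any single library of DMSO or 3C. The log2 fold change was then 0.94 without either DMSO library, 0.96 without the first 3C library and 0.92 without the second. With all 6 libraries the adjusted p was 0.0534 by edgeR on all genes with at least 1 count and 0.0538 by limma on unfiltered log2(FPKM + 1). Without the second 5C library the rise in 5C was 0.86, short of the fold limit, and without the first 5C library it was 1.54. The estimate stayed at 1.24 without either DMSO library, although the call was then not kept. The size of the rise thus varied with the 5C library used and not with the DMSO library.

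Des (chromosome 1, 75320511 to 75345223, plus strand) encodes desmin, an intermediate filament of stellate and muscle cells. Its direction was opposite to that of the receptors. It had 83.2 and 99.4 CPM in DMSO, 41.7 and 50.2 CPM in 3C and 54.4 and 55.0 CPM in 5C, so that DMSO was highest and no groups overlapped. Des fell by 1.02 on the log2 scale in 3C against DMSO (SE 0.12, adjusted p = 0.000228), and this call lies close to the fold limit, with -0.87 without the second DMSO library and -0.89 without the first 3C library. In 5C against DMSO the log2 fold change was -0.72 (SE 0.12, 95% interval -0.98 to -0.46, adjusted p = 0.00147), past the p limit only. An annotated transcript of the opposite strand covers 5.6% of the exonic bases of Des, and whether strand was used in counting is not given in the sources used here.

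Ngfr (chromosome 11, 95459638 to 95478561, minus strand) encodes the low-affinity neurotrophin receptor p75. It was close to absent in DMSO, with 0.328 and 0.167 CPM, the second of which is 11 counts and under the floor. In 3C it had 5.78 and 4.98 CPM and in 5C 0.782 and 3.32 CPM. All 4 treated libraries were above both DMSO libraries, and the 5C libraries differed from each other more than those of any other group. The log2 fold change was 4.40 (SE 0.75, 95% interval 2.63 to 6.17, adjusted p = 0.00498) in 3C against DMSO and 3.07 (SE 0.73, 95% interval 1.35 to 4.79, adjusted p = 0.0186) in 5C against DMSO. These sizes rest on few counts in DMSO, and without the first or the second DMSO library the adjusted p in 5C against DMSO was 0.0793 or 0.133. In 3C against DMSO it was 0.0556 without the second DMSO library. The difference of 5C from 3C, -1.33 (95% interval -2.82 to 0.15, adjusted p = 0.254), did not pass, and it was -2.75 (adjusted p = 0.0173), past both limits, without the second 5C library. Without that library the log2 fold change in 5C against DMSO was 1.66 (adjusted p = 0.0374). Schwann cells also hold Ngfr, and the 6 neural crest and Schwann markers summed to 40.3 to 52.2 CPM in DMSO, 49.9 to 55.0 CPM in 3C and 77.6 to 80.8 CPM in 5C, most of it Mbp. Sox10 had 0.0596 CPM in 1 DMSO library and no count elsewhere, and Cdh19 had 0.101 CPM in 1 library of 5C and no count elsewhere. None of the 4 tested genes of this list passed both limits in any of the 3 comparisons, and 1 passed the adjusted p alone in 5C against DMSO. The part of such cells in the level of Ngfr was not tested.

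Lrat (chromosome 3, 82799886 to 82811288, minus strand) encodes lecithin retinol acyltransferase, which makes the retinyl esters stored by quiescent stellate cells. It had 6.92 and 8.01 CPM in DMSO, 30.8 and 34.4 CPM in 3C and 14.4 and 20.4 CPM in 5C. The groups did not overlap, and 5C lay between DMSO and 3C. Lrat rose in 3C against DMSO by a log2 fold change of 2.10 (SE 0.18, 95% interval 1.68 to 2.51, adjusted p = 5.2e-05), which is 4.27-fold. It rose in 5C against DMSO by 1.24 (SE 0.18, 95% interval 0.83 to 1.65, adjusted p = 0.00086), which was 0.94 without the second 5C library. The direct difference of 5C from 3C was -0.86 (SE 0.18, 95% interval -1.26 to -0.46, adjusted p = 0.0134), inside the fold limit. Without the second 5C library it was -1.15, past both limits. It passed neither limit without the first 3C library (-0.93), the second 3C library (-0.77) or the first 5C library (-0.62). By limma on unfiltered log2(FPKM + 1) the adjusted p was 0.0915. A transcript of the opposite strand, Rbm46os, covers 8.36% of the exonic bases of Lrat.

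Rgs5 (chromosome 1, 169483036 to 169524887, plus strand) encodes a regulator of G protein signalling that marks pericytes. It had 8.13 and 7.86 CPM in DMSO, 14.3 and 21.0 CPM in 3C and 9.08 and 8.74 CPM in 5C. The 3C libraries were the highest, and the 5C libraries lay just above those of DMSO. Rgs5 rose in 3C against DMSO by a log2 fold change of 1.11 (SE 0.19, 95% interval 0.69 to 1.54, adjusted p = 0.00233), which was 0.80 without the second 3C library. In 5C against DMSO the value was 0.17 (95% interval -0.25 to 0.60, adjusted p = 0.555). The difference of 5C from 3C was -0.94 (SE 0.19, adjusted p = 0.0114), just inside the fold limit. Without the first 3C library it was -1.19, past both limits. It passed neither limit without the second 3C library (-0.63), the first 5C library (-0.95) or the second 5C library (-0.93). By limma on unfiltered log2(FPKM + 1) the adjusted p was 0.121.

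The remaining 4 markers, all quiescence-linked, did not pass both limits in any comparison. Reln (chromosome 5, 22089452 to 22549700, minus strand) encodes the secreted glycoprotein reelin and had 21.4 and 14.2 CPM in DMSO, 23.7 and 20.8 CPM in 3C and 10.3 and 23.7 CPM in 5C. Its groups overlapped, and the 5C libraries were the widest pair. The log2 fold change was -0.04 (95% interval -1.24 to 1.16) in 5C against DMSO and 0.29 (95% interval -0.91 to 1.49) in 3C against DMSO, intervals that hold changes of more than 1 in size. In 5C against 3C it was -0.33 (adjusted p = 0.749), and -1.08 (adjusted p = 0.0435), past both limits, without the second 5C library.

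Hgf (chromosome 5, 16758041 to 16828178, plus strand) encodes hepatocyte growth factor, a mitogen for hepatocytes that stellate cells secrete. It had 7.89 and 6.90 CPM in DMSO, 11.1 and 8.16 CPM in 3C and 5.05 and 6.98 CPM in 5C. The 3C libraries were the highest, and DMSO and 5C overlapped. The log2 fold change was -0.28 (95% interval -0.79 to 0.23) in 5C against DMSO, 0.35 (95% interval -0.16 to 0.85) in 3C against DMSO and -0.62 (95% interval -1.13 to -0.11, adjusted p = 0.118) in 5C against 3C.

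Lhx2 and Hand2 encode transcription factors of stellate cells, and loss of Lhx2 in mice is known to activate these cells. Lhx2 (chromosome 2, 38229293 to 38259759, plus strand) had 6.12 and 6.25 CPM in DMSO, 5.54 and 5.00 CPM in 3C and 4.91 and 6.04 CPM in 5C. Both cocktail groups lay below DMSO, and 3C and 5C overlapped. The log2 fold change of Lhx2 was -0.16 (95% interval -0.61 to 0.29) in 5C against DMSO and -0.26 (95% interval -0.72 to 0.19) in 3C against DMSO, so that a change of more than 1 in size lay outside both intervals. Hand2 (chromosome 8, 57774011 to 57777677, plus strand) had 17.6 and 19.9 CPM in DMSO, 19.3 and 18.1 CPM in 3C and 19.7 and 18.2 CPM in 5C. Its groups overlapped throughout. The log2 fold change of Hand2 was 0.03 (95% interval -0.24 to 0.29) in 5C against DMSO and -0.04 (95% interval -0.30 to 0.23) in 3C against DMSO, the narrowest pair of intervals among these 4 genes. In 5C against 3C, Lhx2 had 0.11 (adjusted p = 0.822) and Hand2 0.07 (adjusted p = 0.81). Hand2 is uncertain as a count, since transcripts of the opposite strand cover 28.3% of its exonic bases.

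**Figure D2:**
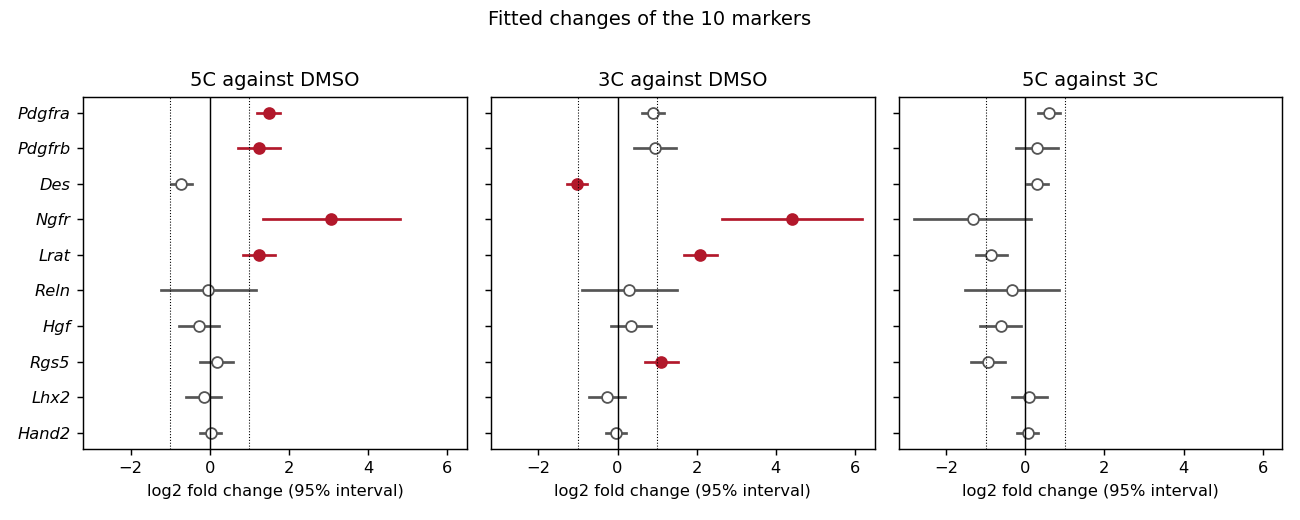
Fitted log2 fold change (horizontal axis) of each marker with its 95% interval in the 3 comparisons; filled points are genes called, open points are not, and dotted lines stand at -1 and 1. Pdgfra, Pdgfrb, Ngfr and Lrat lie beyond the line in 5C against DMSO, Lrat, Rgs5, Ngfr and Des in 3C against DMSO, and no marker is called in 5C against 3C.

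For each library the quiescence-linked and activation-linked markers were also summed, as a description without a test. The 3 activation-linked genes summed to 225 and 226 CPM in DMSO, 306 and 306 CPM in 3C and 340 and 442 CPM in 5C. The 7 quiescence-linked genes summed to 68.4 and 63.4 CPM in DMSO, 110 and 113 CPM in 3C and 64.1 and 87.3 CPM in 5C. The ratio of the second sum to the first was 0.304 and 0.280 in DMSO, 0.361 and 0.368 in 3C and 0.189 and 0.198 in 5C. Without Lrat the quiescence-linked sum was 27.3% and 24.4% of the activation-linked sum in DMSO, 26.1% and 25.5% in 3C and 14.7% and 15.1% in 5C, so that DMSO and 3C then overlapped and 5C was the lowest. The 3C libraries were highest on the quiescence-linked sum, on which DMSO and 5C overlapped, and the 5C libraries were highest on the activation-linked sum, where Pdgfra and Pdgfrb contribute most of the CPM. Over the 7 quiescence-linked genes the median log2 fold change was 0.03 in 5C against DMSO, with 2 genes higher and none lower by call, and 0.35 in 3C against DMSO, with 3 higher and none lower. The medians over all tested genes in these comparisons were 0.00 and 0.01.

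**Figure D3:**
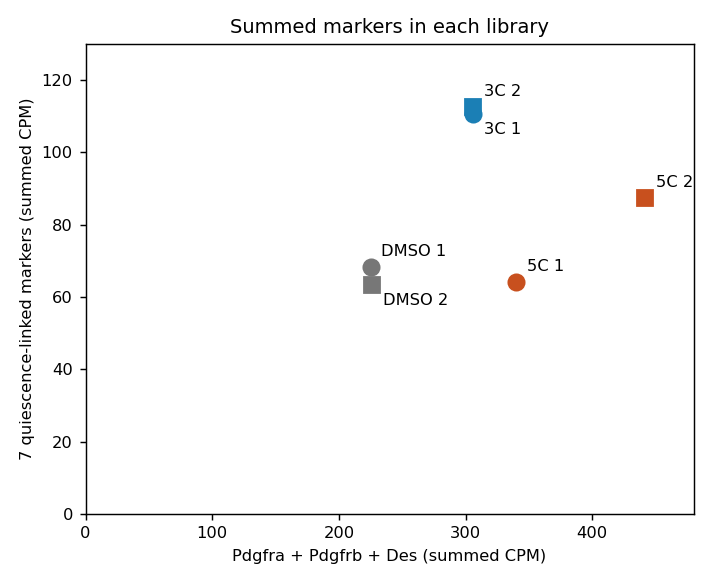
Summed CPM of the 3 activation-linked markers Pdgfra, Pdgfrb and Des (horizontal axis) against summed CPM of the 7 quiescence-linked markers (vertical axis), 1 point per library, both axes from 0. The 3C libraries lie at 110 and 113 CPM on the vertical axis, and the 5C libraries lie farthest to the right, at 340 and 442 CPM.

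The sequence upstream of the RefSeq start is shown for Lrat, Rgs5 and Ngfr, the 3 quiescence-linked markers that rose in 3C. Each line gives, 5′ to 3′ on the strand of the gene, the 200 bases from 250 to 51 bases before the start, taken from RefSeq promoter records of GRCm38.p6 and placed by a single exact match in GRCm39. Capitals mark the motifs searched on both strands, which were TGACG (the half-site of CREB, a factor activated by cAMP), CCAAT (read as ATTGG on the other strand) and GGGCGG (the GC box).
Lrat, chr3:82811332-82811531, minus strand: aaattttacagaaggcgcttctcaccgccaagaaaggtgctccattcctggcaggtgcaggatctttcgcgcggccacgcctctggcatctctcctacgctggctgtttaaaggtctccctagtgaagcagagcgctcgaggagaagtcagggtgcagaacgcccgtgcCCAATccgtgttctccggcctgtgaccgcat
Rgs5, chr1:169482820-169483019, plus strand: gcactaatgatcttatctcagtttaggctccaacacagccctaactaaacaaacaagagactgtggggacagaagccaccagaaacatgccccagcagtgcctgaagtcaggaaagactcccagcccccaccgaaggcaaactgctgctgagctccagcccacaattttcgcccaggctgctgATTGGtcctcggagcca
Ngfr, chr11:95478575-95478774, minus strand: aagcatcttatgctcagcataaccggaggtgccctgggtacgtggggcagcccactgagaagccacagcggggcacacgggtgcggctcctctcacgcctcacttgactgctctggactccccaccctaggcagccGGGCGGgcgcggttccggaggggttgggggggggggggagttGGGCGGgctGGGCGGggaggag

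The 3 windows did not share a motif set. Those of Lrat and Rgs5 each held 1 CCAAT box, on the strand of the gene for Lrat and on the other strand for Rgs5, and that of Ngfr held 3 GC boxes. TGACG was in none of the 3. RefSeq starts were matched for 9 of the 10 markers (not Pdgfrb) and gave 11 windows, of which 2 held TGACG, those of Pdgfra and Lhx2, 3 held CCAAT and 5 held GGGCGG. Among 32851 promoter windows of the same length, 12.7% held TGACG, 28.4% held CCAAT and 24.6% held GGGCGG. A match is a description of letters and not of a bound site.

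The other genes of stellate quiescence were mixed. Of 18 tested, 3 rose and 3 fell in 5C against DMSO, with a median log2 fold change of 0.84, and 2 rose and 1 fell in 3C against DMSO, with a median of 0.46. Bambi, a decoy receptor that dampens TGF-β signalling, rose in both, by 1.63 (SE 0.14, adjusted p = 3.59e-05) in 5C and 1.19 (SE 0.14, adjusted p = 0.000291) in 3C. Its levels were 4.71 and 5.11 CPM in DMSO, 11.4 and 11.5 CPM in 3C and 15.3 and 14.7 CPM in 5C. Colec11, a collectin, went the way of Lrat, with 1.74 and 1.64 CPM in DMSO, 11.4 and 8.87 CPM in 3C and 3.85 and 4.74 CPM in 5C. Against DMSO it rose by 2.55 in 3C and 1.36 in 5C, and its log2 fold change in 5C against 3C was -1.19 (SE 0.22, adjusted p = 0.00816). Adamtsl2, a matrix protein, rose by 3.59 (SE 0.80, adjusted p = 0.0463) in 5C against DMSO, and had 3.64 (adjusted p = 0.0507) in 3C, where it did not pass.

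Of the BMP ligands of quiescent stellate cells, Gdf2 fell in 5C and Bmp10 in both cocktails. Gdf2, which encodes BMP9, fell by 1.13 in 5C against DMSO (adjusted p = 0.00299), from 11.6 and 15.7 CPM to 5.99 and 6.35 CPM, and in 3C it had 7.10 and 9.10 CPM (-0.79, adjusted p = 0.0205), short of the fold limit. Bmp10 fell by 1.71 in 3C against DMSO (adjusted p = 0.00462), from 4.35 and 5.14 CPM to 1.33 and 1.64 CPM. It fell by 3.23 in 5C against DMSO (adjusted p = 0.000146), and it was lower in 5C than in 3C by -1.52 (adjusted p = 0.0202). In 5C against 3C the list had 1 gene higher and 3 lower of 18. The higher one was Gata4, a transcription factor with 77.9 and 70.0 CPM in 5C beside 38.03 and 33.9 CPM in 3C (log2 fold change 1.09, adjusted p = 0.000258), and the others were Colec11, Bmp10 and Colec10.

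Most genes of activated stellate cells and myofibroblasts did not pass both limits in any single comparison. Of 19 tested, 4 fell and none rose in 3C against DMSO, with a median log2 fold change of -0.62 and 18 of 19 estimates below 0. Only 1 rose in 5C against DMSO, with a median of 0.01, and the comparison of 5C with 3C had 6 higher, at a median of 0.66. Acta2, the smooth muscle actin of myofibroblasts, had 336 and 321 CPM in DMSO, 138 and 138 CPM in 3C and 238 and 182 CPM in 5C. It fell by 1.29 in 3C against DMSO (SE 0.11, adjusted p = 3.77e-05), and its difference of -0.63 (SE 0.11, adjusted p = 0.00195) in 5C against DMSO passed the p limit only. The levels of Acta2 in the 3 groups did not overlap, and 5C lay between DMSO and 3C, while Des in 5C lay near its level in 3C.

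Timp1, an inhibitor of matrix metalloproteinases, had 54.6 and 66.02 CPM in DMSO, 26.5 and 27.1 CPM in 3C and 59.5 and 60.4 CPM in 5C. It fell by 1.20 on the log2 scale in 3C against DMSO (adjusted p = 4.79e-05), had 0.01 (adjusted p = 0.961) in 5C against DMSO and was higher in 5C than in 3C by 1.21 (SE 0.10, adjusted p = 0.000273). Col1a1, the alpha 1 chain of type I collagen, had 3482 and 2921 CPM in DMSO, 2027 and 2149 CPM in 3C and 3668 and 3880 CPM in 5C. Its log2 fold changes were -0.65 (adjusted p = 0.000793) in 3C against DMSO, 0.26 (adjusted p = 0.0635) in 5C against DMSO and 0.91 (adjusted p = 0.000562) in 5C against 3C, none past both limits. Col1a2 by 1.02, Col5a2 by 1.40 and the collagen crosslinking enzymes Lox by 1.07 and Loxl1 by 1.09 were higher in 5C than in 3C. Loxl1 was also the gene that rose in 5C against DMSO, by 1.14 (adjusted p = 4.86e-05). In 3C against DMSO, Tagln by 1.36 and Cthrc1 by 1.66 on the log2 scale also fell, and Tagln is uncertain because exons of Pcsk7 and another transcript cover 66.7% of its exonic bases on the opposite strand.

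Beside these genes, the summed level of the 10 mesothelial markers was also higher in 5C than in either other group, with 6 of 10 higher than in DMSO and 5 of 10 higher than in 3C, while 1 of 10 was higher in 3C than in DMSO. Mesothelial cells also express collagens and Pdgfra, and the part of these cells in the levels above was not tested. Summed macrophage markers moved the other way, with 9 of 10 lower in each cocktail against DMSO.

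**Figure D4:**
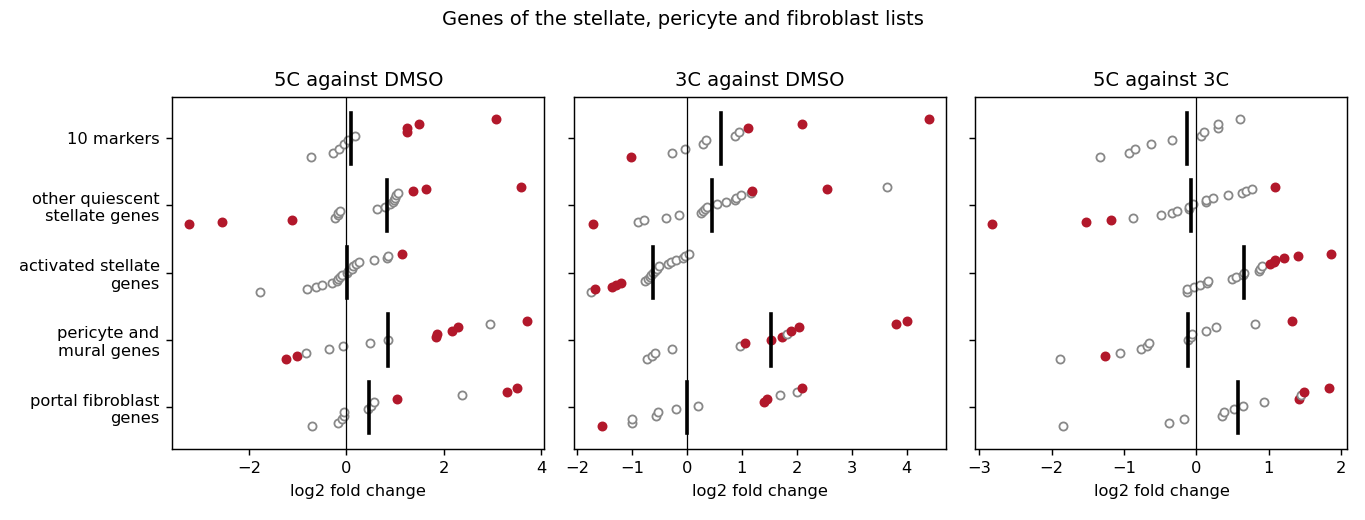
Log2 fold change (horizontal axes) of each tested gene of 5 lists in the 3 comparisons; filled points are genes called, open points are not, and thick bars are list medians. The activated list lies around 0 in 5C against DMSO (median 0.01), below 0 in 3C against DMSO (median -0.62) and above 0 in 5C against 3C (median 0.66).

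Genes of pericytes and vascular smooth muscle held more members that rose than fell in both cocktails. Of 13 tested, 5 rose and 2 fell in 5C against DMSO, and 7 rose in 3C against DMSO, with medians of 0.85 and 1.53. The summed level of the list was 76.6 to 87.5 CPM in DMSO, 145 to 153 CPM in 3C and 107 to 135 CPM in 5C, an order like that of Rgs5. Notch3, a receptor of mural cells, had 18.9 and 18.4 CPM in DMSO, 57.1 and 52.9 CPM in 3C and 30.3 and 35.9 CPM in 5C. It rose in 3C against DMSO by 1.53 (SE 0.11, adjusted p = 1.71e-05) and reached 0.85 (adjusted p = 0.000387) in 5C against DMSO. Its target Heyl rose from 0.566 and 1.38 CPM to 12.2 and 15.5 CPM in 3C, by 3.80 (SE 0.53, adjusted p = 0.00354). The level of Heyl was also high in 5C, with a mean of 12.6 CPM beside 13.9 CPM in 3C and 0.973 CPM in DMSO.

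Mcam, an adhesion molecule of pericytes and endothelium, rose in both, by 1.86 (adjusted p = 6.71e-05) in 5C and 1.06 (adjusted p = 0.0023) in 3C. Ndufa4l2 rose by 1.83 and 1.90, but exons of Shmt2 cover 63.3% of its exonic bases on the other strand and its counts are uncertain. The contractile gene Myh11 fell by 1.24 in 5C against DMSO (adjusted p = 0.0016), from 32.3 and 24.3 CPM to 14.3 and 9.49 CPM, and Rgs4 fell by 1.03. The 2 subunits of the vascular potassium channel went apart in 5C against 3C, with Kcnj8 at 1.32 (SE 0.28, adjusted p = 0.0151) and Abcc9 at -1.26 (SE 0.30, adjusted p = 0.0267). Of 9 endothelial markers, 7 were higher and 1 lower in 5C against DMSO, 5 higher and 1 lower in 3C against DMSO and 5 higher in 5C against 3C, where the pericyte list had 1 higher and 1 lower. Their summed level, most of it Lyve1 in DMSO and in 3C, was 330.0 to 340.1 CPM in DMSO, 98.4 to 136 CPM in 3C and 178 to 273 CPM in 5C, and Clec4g had no count in 5 of the 6 libraries. The part of endothelial cells in these levels was not tested.

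Genes of portal fibroblasts, another source of liver myofibroblasts, held 3 that rose in 5C against DMSO, 3 that rose and 1 that fell in 3C against DMSO and 3 that were higher in 5C than in 3C, of 12 tested. Eln, which encodes elastin, had 3.75 and 2.82 CPM in DMSO, 13.2 and 15.6 CPM in 3C and 36.2 and 37.8 CPM in 5C. It rose by 3.51 (SE 0.16, adjusted p = 1.04e-06) in 5C and by 2.10 (SE 0.16, adjusted p = 2.08e-05) in 3C against DMSO. Mfap4, a protein of elastic fibres, rose by 3.29 in 5C and 1.46 in 3C, and Entpd2, an ectonucleotidase, by 1.03 and 1.40, although 22.5% of the 50-base words of the transcript of Entpd2 also occur in Npdc1. Mfap5 fell by 1.54 in 3C against DMSO (adjusted p = 0.047), and Pi16 was higher in 5C than in 3C by 1.49 (adjusted p = 0.0499).

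The ligands and partners of the markers were examined next. None of the 4 PDGF ligands passed both limits in any comparison by edgeR. In 3C against DMSO, Pdgfb had a log2 fold change of 0.76 (adjusted p = 0.0007), and Pdgfd had 0.66 (adjusted p = 0.017) in 5C against DMSO, so that 2 ligands passed the p limit alone in each comparison.

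Of 7 genes that act on or receive HGF, 2 rose in 5C and 3 rose in 3C. Met, the HGF receptor, had 81.2 and 76.6 CPM in DMSO, 118 and 117 CPM in 3C and 109 and 112 CPM in 5C, with log2 fold changes of 0.54 (SE 0.06, adjusted p = 0.00029) in 3C and 0.50 (SE 0.06, adjusted p = 0.000384) in 5C. Hpn, which encodes hepsin, a protease that activates HGF, rose by 1.72 in 3C (adjusted p = 1.48e-06) and 1.39 in 5C (adjusted p = 1.24e-06), and Spint1, an inhibitor of such proteases, by 1.65 and 1.60. Hgfac, the HGF activator, rose by 1.15 in 3C (adjusted p = 0.000623). These are also genes of hepatocytes and other epithelial cells. Against DMSO, 8 of 10 hepatocyte markers were higher in 5C and 9 of 10 in 3C. Of 8 cholangiocyte markers, 3 were higher in 5C and 6 in 3C. Their sum, most of it Spp1, was 2946 to 3441 CPM in DMSO, 3638 to 3831 CPM in 3C and 2444 to 2755 CPM in 5C. The part of those cells in the levels was not tested.

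Among the reelin partners, the adaptor Dab1 rose by 2.50 (SE 0.22, adjusted p = 5.49e-05) in 3C and 2.19 (SE 0.22, adjusted p = 8.72e-05) in 5C, and the receptor Lrp8 fell by 1.08 in 5C against DMSO (adjusted p = 0.000772), while Reln itself did not pass. Among the partners of Ngfr, Sort1, which encodes sortilin, fell by 1.31 in 5C and 1.18 in 3C against DMSO, from 199.8 and 191 CPM in DMSO to 78.5 and 76.7 CPM in 5C. Transcripts of the opposite strand cover 26.9% of the exonic bases of Sort1. Ntrk2, the receptor for BDNF, rose by 4.13 (SE 0.27, adjusted p = 6.12e-06) in 5C and 3.05 (SE 0.26, adjusted p = 4.22e-05) in 3C, and was higher in 5C than in 3C by 1.08 (adjusted p = 0.015). Ntrk3, the receptor for NT-3, rose by 1.91 in 5C and 2.41 in 3C. Ngfr, Ntrk2 and Ntrk3 all had under 1 CPM in both DMSO libraries.

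Of 14 tested retinoid genes around Lrat, 3 rose and 1 fell in 5C against DMSO, and 1 rose and 2 fell in 3C against DMSO. Rbp4, the retinol carrier that hepatocytes secrete, rose from 299 and 304 CPM in DMSO to 968 and 928 CPM in 3C and 629 and 761 CPM in 5C, by 1.62 (SE 0.10) in 3C and 1.23 (SE 0.10) in 5C. Cyp26b1, which degrades retinoic acid, fell from 31.5 and 29.6 CPM to 7.90 and 7.14 CPM in 3C and to 5.41 and 3.84 CPM in 5C (log2 fold changes -2.05 and -2.70). Its relative Cyp26a1 went up in 5C, by 2.22 (SE 0.29, adjusted p = 0.000461) against DMSO and 1.57 (SE 0.29, adjusted p = 0.00762) against 3C. Aldh1a2, which makes retinoic acid, rose by 1.67 in 5C against DMSO (adjusted p = 0.022). Crabp2, a carrier of retinoic acid in cells, fell by 1.72 in 3C against DMSO (adjusted p = 0.0438) and was higher in 5C than in 3C by 2.64 (adjusted p = 0.0124).

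**Figure D5:**
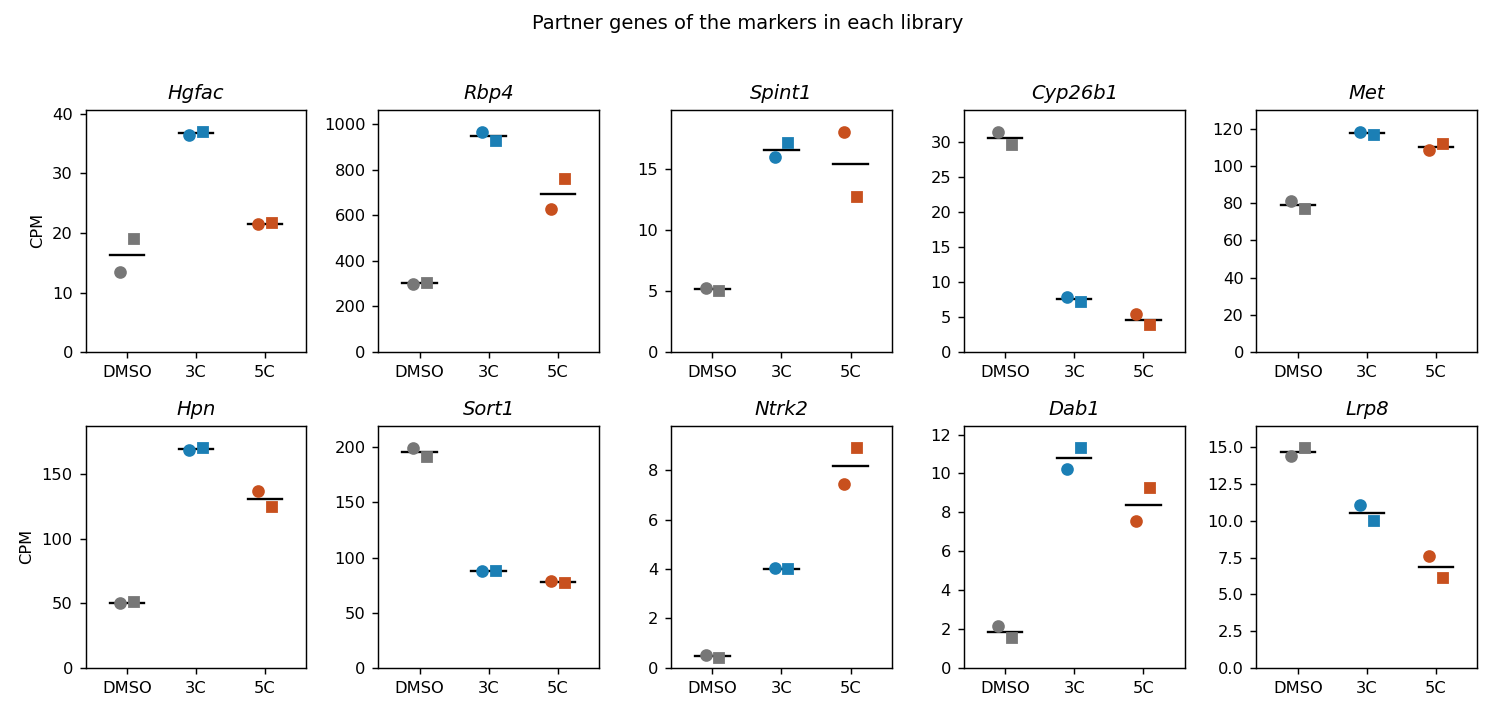
CPM (vertical axes, each from 0) of 10 partner genes of the markers in each library, by group; circles are replicate 1, squares replicate 2 and horizontal bars group means. Rbp4, Spint1, Hpn, Hgfac, Ntrk2 and Dab1 are higher and Cyp26b1, Sort1 and Lrp8 lower in both cocktails than in DMSO, of which Lrp8 in 3C and Hgfac in 5C did not pass both limits.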

How the data were processed

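RNA was sequenced from cultured dHeps on day 16, with 2 libraries in each of the DMSO, 3C and 5C groups. The authors deposited a table of estimated counts, given as whole numbers without normalization, covering 52323 genes, and an FPKM table, scaled for gene length and library total, for 52327 genes. The submitters' processing notes name GRCm39, Subread, featureCounts and DESeq2, with no versions. The annotation and the strand setting are not given in the sources used here. Among low values of the deposited estimated counts, 4 was more frequent (4816 entries) than 3 (3121) and 5 (2303), so the number of counts per fragment is unknown and 4 was assumed for the floor. Intervals and floors cover counting error only where they rest on counts.

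Genes were kept by filterByExpr, which left 19135. The 6 libraries were fitted with 1 coefficient per group in R 4.3.3 with edgeR 4.0.16, using TMM factors and its robust quasi-likelihood test. The fit had 3 residual degrees of freedom and a common biological coefficient of variation of 18.4%. Calls required both an adjusted p (Benjamini-Hochberg over all tested genes) under 0.05 and a log2 fold change of more than 1 in size. Adjusted p-values are two-sided and come from this test unless another is named. The SE is the value implied by the F statistic. CPM are counts scaled to a library total of 1e6, without the TMM factors.

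All 10 markers are described. Of the other lists, called genes were named, at most the 4 with the highest mean CPM per list and comparison, with Acta2, Col1a1, Timp1 and Met whatever their result; 1 further gene of this rule is not reported here. Gfap, Hhip, Sox10, Cdh19, Mbp, Clec4g, Lyve1, Pdgfb, Pdgfd, Alb, Arg1, Spp1 and, in 5C against DMSO, Bmp10 and Heyl were named outside this rule. They were added after their values were seen. The markers, lists and tests were chosen with earlier results of these data known. Alternatives were RLE and upper quartile normalization, other filters on low counts, DESeq2 1.42.0, fits to 2 groups, a replicate block, the adjusted p alone, counts divided by 4, limma 3.58.1 on FPKM with a pseudocount of 1 or 0.1, and fits without each library in turn. Positions and overlaps came from the GENCODE annotation of GRCm39. Steps were tested on simulated data. Figures were drawn with matplotlib 3.10.9.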

Additional observations from a re-analysis of the deposited data

How the results depend on the processing

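The counts of markers called, 4 in 5C against DMSO, 4 in 3C against DMSO and 0 in 5C against 3C, were the same under RLE and upper quartile normalization, both other count filters, DESeq2, fits to 2 groups, counts divided by 4 and log2(FPKM + 0.1). On the adjusted p alone they were 5, 6 and 3. With log2(FPKM + 1), with or without a filter, they were 2 and 2 against DMSO. Lrat (0.78) and Ngfr (0.49) were then not called in 5C, nor Rgs5 (0.80) and Des (-0.96) in 3C. This pseudocount understates the change of low genes. With the filter, calls over all 18332 genes tested by this setting also fell, to 1228 in 5C against DMSO and 959 in 3C against DMSO. The main fit had 2242 and 1809 of 19135. Leaving out 1 library gave 2 to 4 in 5C against DMSO (2 without either DMSO library or without the second 5C library), 2 to 5 in 3C against DMSO (2 without the second and 5 without the first DMSO library) and 0 to 3 in 5C against 3C (1 without the first 3C library and 3 without the second 5C library). The cause of these shifts was not tested. A lone library of a group was then assumed to vary like the other groups.

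Of 540 values of single markers under an alternative, 499 kept direction and side of the limits, 18 lost a call, 11 gained one and 12 changed sign without a call. These values include the adjusted p alone, which reuses the main estimates and can only gain calls. They also include fits without a library of the group not compared, and the settings are not independent of each other. Reln in 5C against DMSO was 0.27 without the first DMSO library and ran from -0.79 to 0.45 over the left-out libraries. Hand2 ran from -0.070 to 0.13 in 5C against DMSO (-0.016 without the first 5C library) and from -0.14 to 0.074 in 3C against DMSO (0.0060 without the second 3C library). In 5C against 3C, Reln ran from -1.08 to 0.15, Pdgfrb from -0.086 to 0.59 and Lhx2 from -0.072 to 0.26, and Lhx2 was -0.0070 with log2(FPKM + 1), with or without a filter, and -0.011 with log2(FPKM + 0.1). With the replicate number as a block the counts stayed at 4, 4 and 0. Deviations of same-numbered libraries correlated at -0.03, 0.00 and 0.02 across genes, and the numbers were not taken to pair the samples. Depth limits Ngfr most, with under 1 CPM in both DMSO libraries and in 1 library of 5C.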
